A study of Mus musculus with 2 samples.

Results

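Cytochrome c oxidase subunits and their assembly factors were followed here in mouse heart. The genes were chosen by symbol: every gene whose name starts with Cox and a digit, together with Sco1, Sco2, Surf1, Coa3, Coa5, Coa6, Coa7, Pet100 and Pet117. The annotation (GENCODE M21) holds 38 such genes. Of these, 36 had at least 1 read in either library (35 in replicate 1, 33 in replicate 2), among 16310 annotated genes with reads. By role, 17 are structural subunits of the enzyme or their tissue isoforms, 18 are assembly factors, Cox7a2l is a supercomplex factor, and Cox20b and Cox6c2 are annotated as processed pseudogenes.

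The tissue was heart, taken at 14 days of age from females of the F1 hybrid strain B6CASTF1/J. Long-read RNA sequencing was run on 2 libraries of 1 group, each from 2 µg of RNA with spike-in RNA added, so there was no condition to compare. The labels call the libraries biological replicates 1 and 2. They do not say clearly which animals each came from, so differences between replicates may be technical. Reads other than spike-ins numbered 884718 in replicate 1 and 959334 in replicate 2, and levels are given as reads scaled to these totals (CPM). In replicate 1 a single read was worth 1.13 CPM, and a gene with 0 reads may still lie at up to 3 reads, or 3.39 CPM. In replicate 2 these values were 1.04 and 3.13 CPM. Each long read stands for a cDNA molecule, so CPM was not divided by transcript length, and lengths are given where they matter. All intervals are exact 95% intervals and, like all p-values, cover counting error only.

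Cytochrome c oxidase, or complex IV, is the last enzyme of the respiratory chain in the inner mitochondrial membrane. It takes electrons from cytochrome c and reduces oxygen to water while pumping protons. Its catalytic core is made of the mitochondrially encoded subunits mt-Co1, mt-Co2 and mt-Co3, and the heme a and copper centres lie within that core. The nuclear subunits described here surround that core, and several of them have a form that predominates in heart and skeletal muscle. Assembly factors make heme a, deliver copper and stabilise the core subunits, and are not part of the finished enzyme.

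Reads on the 38 genes made up 1.62% of the reads other than spike-ins in replicate 1 and 1.91% in replicate 2. At least 3 reads in both libraries, the level called detected here, were found for 32 of the 36 genes with reads, and for 64.5% of all annotated genes with reads. The structural subunits summed to 14654 CPM in replicate 1 and 17546.5 CPM in replicate 2, a mean of 16100.5 ± 2045 (SD, n = 2), over 14 of 17 genes detected. The assembly factors summed to 1309 and 1380.1 CPM, a mean of 1345 ± 50.4 (SD, n = 2), with 17 of 18 detected. The sum of the structural subunits thus lay above that of the assembly factors in both libraries, and their median level was 758 CPM per gene against 35.8 CPM.

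**Figure D1:**
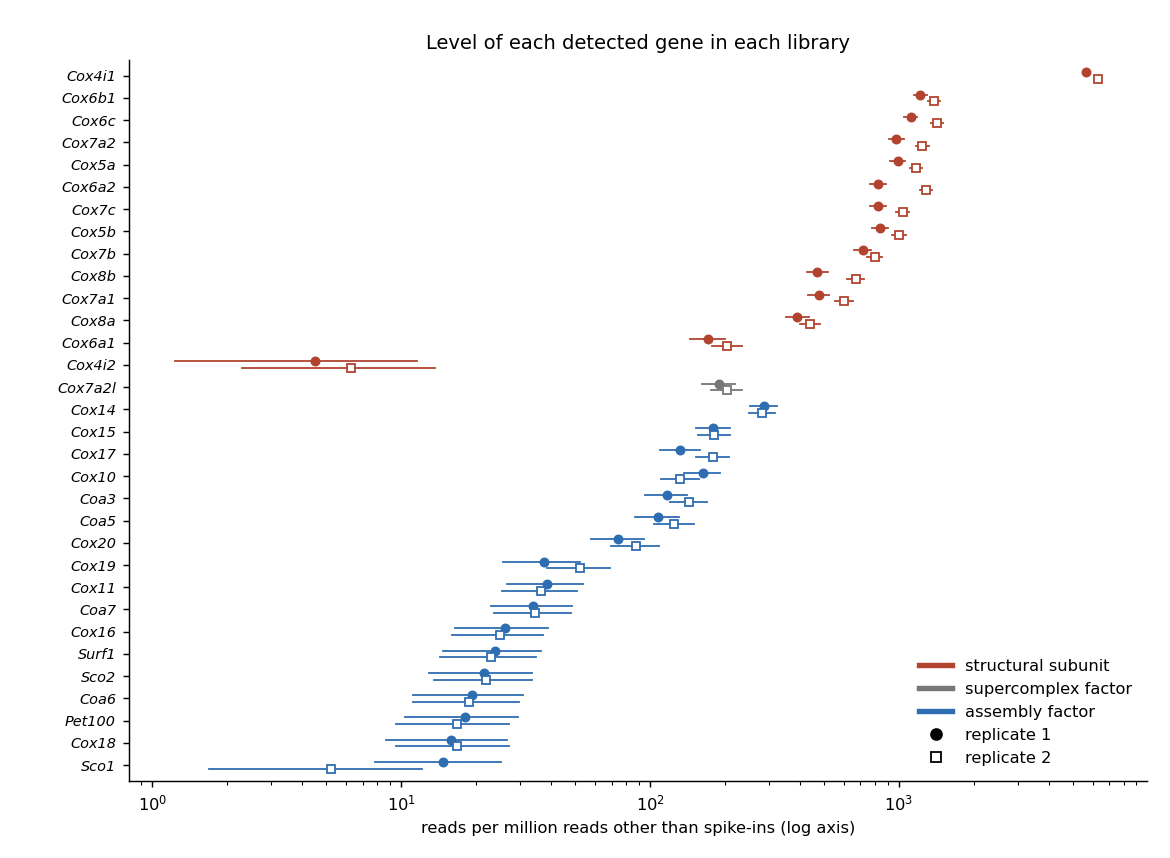
Level of the 32 detected genes in each library, in CPM on a log axis. Points are the libraries and bars the exact 95% Poisson interval of each count. From Cox4i1 down to Cox8a the structural subunits sit above every assembly factor in both libraries, Cox6a1 and Cox4i2 sit lower, and the assembly factors spread from Cox14 down to Sco1.

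Cox4i1, the subunit 4 form found in most tissues, had the most reads of any member, 4981 in replicate 1 and 6032 in replicate 2, which is 5959 ± 465 CPM (SD, n = 2). It ranked 12th of all annotated genes by mean CPM. Cox4i2, its lung and hypoxia-related isoform, had 4 and 6 reads, or 0.0802% and 0.0994% of the reads of the pair. The next structural subunits lay close together. Cox6b1, which faces the intermembrane space near the cytochrome c site, had 1079 and 1324 reads (1299.9 ± 114 CPM). Cox6c had 987 and 1368 reads (1271 ± 219 CPM). Cox5a, a matrix-side subunit, had 875 and 1124 reads (1080.3 ± 129 CPM), and Cox5b, a zinc-binding matrix-side subunit, had 745 and 958 reads (920.3 ± 111 CPM). Cox7c had 729 and 992 reads (929 ± 149 CPM), and Cox7b had 634 and 767 reads (758 ± 58.6 CPM). The order among Cox6b1, Cox6c, Cox7a2, Cox5a and Cox6a2 was not the same in both libraries: Cox6b1 led in replicate 1 and Cox6c in replicate 2.

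The isoforms known from testis were at or near 0. Cox7b2 and Cox8c had 0 reads in both libraries, which allows up to 3.39 and 3.13 CPM. Cox6b2 had 0 reads in replicate 1 and 1 in replicate 2, against 1079 and 1324 for Cox6b1. The pseudogenes Cox6c2 and Cox20b had 1 read each in replicate 1 and 0 in replicate 2. Among 34 coding members with reads, 3 had an annotated pseudogene copy of at least 90% identity over at least 50% of their length. These were Cox20 with Cox20b at 97.2%, Cox5a with Gm11633 at 93%, and Cox6a1 with AC148174.2 at 91.5%. The last 2 copies had 0 reads in both libraries, so these 3 copies together held 1 read in replicate 1 and 0 in replicate 2. Shorter copies were left out by the limit on length: Cox6c2, of 231 bases, could not reach it against the 503 bases of Cox6c-201. Reads split onto such copies were therefore not searched for.

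Subunits 6a, 7a and 8 each have a heart and skeletal muscle form (Cox6a2, Cox7a1 and Cox8b) and a form expressed in most tissues (Cox6a1, Cox7a2 and Cox8a). These 3 pairs did not share a balance. Cox6a2 had 732 reads in replicate 1 and 1232 in replicate 2, and Cox6a1 had 151 and 196. The muscle form therefore took 82.9% of the pair (interval 80.3 to 85.3) and 86.3% (84.4 to 88), a mean of 84.6% ± 2.39 (SD, n = 2). Cox8b had 416 and 643 reads and Cox8a 346 and 422, so that Cox8b took 54.6% (51 to 58.2) and 60.4% (57.4 to 63.3) of its pair. Cox7a1 had 421 and 576 reads and Cox7a2 865 and 1192, and here the muscle form took only 32.7% (30.2 to 35.4) and 32.6% (30.4 to 34.8). The intervals of the 3 pairs did not overlap one another in either library, and within each pair those of the 2 libraries overlapped. Cox7a1 stayed the lower member of its pair with annotated models alone, at 30.8%, and without the genomic class (reads within a gene that match no splicing pattern), at 34.7%. The partners also differed in the mean length of their annotated forms, weighted by reads. Cox6a2 was longer than Cox6a1 (680 against 572 bases). Cox8b was shorter than Cox8a (360 against 550), and Cox7a1 was shorter than Cox7a2 (396 against 656). The part of length in these shares was not tested.

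**Figure D2:**
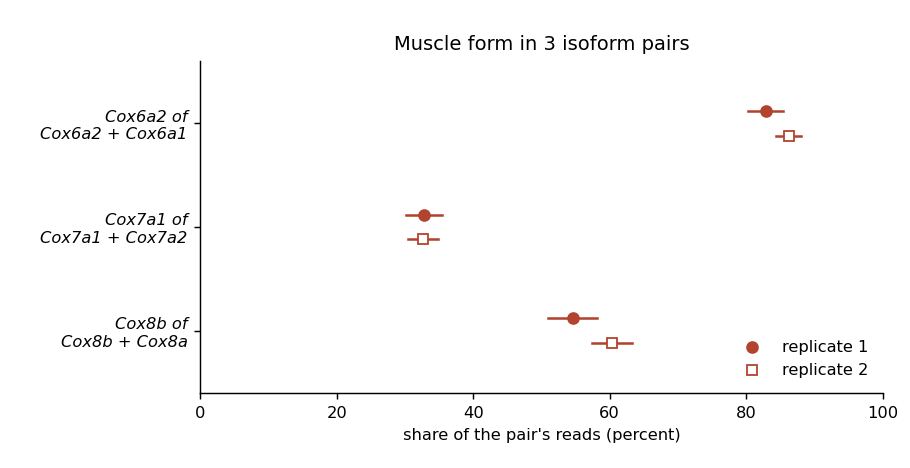
Share of the muscle form in the reads of 3 isoform pairs, in percent, for replicate 1 (filled circles) and replicate 2 (open squares). Bars are exact 95% Clopper-Pearson intervals. Cox6a2 lies above 80% in both libraries, Cox8b between 50 and 61%, and Cox7a1 near 33%.

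The promoters of both forms of subunits 7a and 8 are shown because these pairs had different balances in the same libraries. Each sequence covers the 250 bases before the RefSeq start site on GRCm38.p6, the build also called mm10, and capitals mark CpG dinucleotides. Cox7a1 lies at chr7:30183921-30184170 on the plus strand, Cox7a2 at chr9:79759854-79760103 on the minus strand, Cox8b at chr7:140900447-140900696 on the minus strand and Cox8a at chr19:7217617-7217866 on the minus strand.
Cox7a1: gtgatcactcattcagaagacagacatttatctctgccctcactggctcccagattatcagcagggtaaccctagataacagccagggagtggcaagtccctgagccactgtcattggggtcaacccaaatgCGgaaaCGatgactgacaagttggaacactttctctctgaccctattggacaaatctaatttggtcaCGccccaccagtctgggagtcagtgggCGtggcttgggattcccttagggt
Cox7a2: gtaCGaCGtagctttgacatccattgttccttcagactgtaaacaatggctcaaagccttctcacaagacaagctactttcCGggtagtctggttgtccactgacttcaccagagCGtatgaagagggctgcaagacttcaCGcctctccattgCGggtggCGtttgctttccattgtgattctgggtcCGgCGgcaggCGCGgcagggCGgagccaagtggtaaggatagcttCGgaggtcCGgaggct
Cox8b: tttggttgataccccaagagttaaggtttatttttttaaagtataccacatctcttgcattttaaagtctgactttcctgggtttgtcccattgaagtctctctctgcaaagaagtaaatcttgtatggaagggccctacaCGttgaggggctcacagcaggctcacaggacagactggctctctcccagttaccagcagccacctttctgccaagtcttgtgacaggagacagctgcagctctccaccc
Cox8a: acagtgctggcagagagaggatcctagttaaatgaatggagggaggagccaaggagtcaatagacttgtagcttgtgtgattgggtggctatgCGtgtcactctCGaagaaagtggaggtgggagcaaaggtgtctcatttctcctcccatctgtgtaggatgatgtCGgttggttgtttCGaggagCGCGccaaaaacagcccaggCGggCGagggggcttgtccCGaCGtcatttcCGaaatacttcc

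The windows of the muscle forms held fewer CpG dinucleotides than those of their partners: 4 in Cox7a1 against 14 in Cox7a2, and 1 in Cox8b against 11 in Cox8a. The median over 32851 RefSeq promoters was 6. Fewer than the 1 of Cox8b were found in 7.87% of them, and fewer than the 4 of Cox7a1 in 37.8%. Cox6a1 held 26, and Cox6a2 was not among the 28 members with a promoter in the table. Short motifs were then searched on both strands of the windows of all 28. A member was counted if any of its windows matched, whereas the percents are of single promoters. Some motifs, such as CCGGAAG, hold a CpG, and members were not compared with promoters of like CpG number. The ETS core CCGGAAG was found in 7 of the 28 members (Cox6a1, Cox6b1, Cox10, Cox16, Cox20, Pet100 and Sco1) and in 6.91% of all promoters. An NRF1-type site, GCGCATGCG, was found in Cox6a1 alone of the 28 and in 1.45% of all promoters. The E-box CAGCTG was found in Cox8b and Sco2, and in 13% of all promoters. TATAAA was found in Cox10 and in the testis isoform Cox7b2, and in 12.4% of all promoters. None of the 28 held AAGATGGCG (YY1 type; 0.606% of all promoters), TCAAGGTCA (ERR type; 0.387%) or a MEF2 site (2.92%). Some MEF2 sites contain TATAAA, so these searches can overlap, and a match or its absence says only which letters these windows hold.

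Among assembly factors, those that stabilise newly made mt-Co1 summed highest, at 402 and 424 CPM. Cox14, which binds mt-Co1 during its synthesis, led all assembly factors with 253 and 270 reads (283.7 ± 3.2 CPM). Its partner Coa3 had 103 and 137 reads (129.6 ± 18.7 CPM). The heme a group summed to 366 and 337 CPM. Cox15, the heme a synthase, had 159 and 174 reads, and Cox10, which adds the farnesyl tail to heme, had 144 and 127. Surf1, which acts in heme a insertion and is mutated in Leigh syndrome, had only 21 and 22 reads.

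The copper group summed to 263 and 314 CPM, most of it Cox17, the chaperone that hands copper on in the intermembrane space, with 117 and 172 reads. Cox19 had 33 and 50 reads and Cox11, which delivers copper to mt-Co1, had 34 and 35. The factors that act on the copper site of mt-Co2 were lower: Sco2 had 19 and 21 reads, Coa6 had 17 and 18, and Sco1 had 13 and 5. Factors that insert or stabilise mt-Co2 summed to 116 and 129 CPM, with Cox20 at 66 and 84 reads, Cox16 at 23 and 24 and Cox18 at 14 and 16. Of the remaining factors, Coa5 had 95 and 120 reads, Coa7 had 30 and 33, and Pet100 had 16 and 16. Pet117 had 1 and 0 reads. The supercomplex factor Cox7a2l, which links complexes III and IV, had 167 and 195 reads (196 ± 10.3 CPM). For assembly factors with fewer than 40 reads in a library, the intervals of neighbours in this order overlapped.

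Pet117 was the only assembly factor not detected by its own models. Its first exon region is shared with unannotated models of the gene Kat14, which start at chr2:144368983 to 144368999 and held 7 reads in each library. These reads were not counted for Pet117, and with them it would have 8 and 7. For Sco2, an incomplete model of the overlapping gene Tymp held 5 and 6 further reads over its exons.

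The classes of transcript model behind the reads differed from those of the heart transcriptome as a whole. Annotated forms took 96% ± 0.903 (SD, n = 2) of the reads of the structural subunits and 93.1% ± 0.143 of those of the assembly factors, against 78.7% ± 0.0564 of all reads on annotated genes. Reads on new combinations of annotated splice sites made up 0.117% for structural subunits, 1.18% for assembly factors and 5.59% for all annotated genes. Most members are short, and these shares were not tested against genes of like length. Surf1, with 9 exons, had 14 and 11 of its 21 and 22 reads on annotated forms (66.7% and 50%), the lowest of the members with at least 20 reads in both libraries. Cox18 had 6 reads in each library on new combinations, of 14 and 16.

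**Figure D3:**
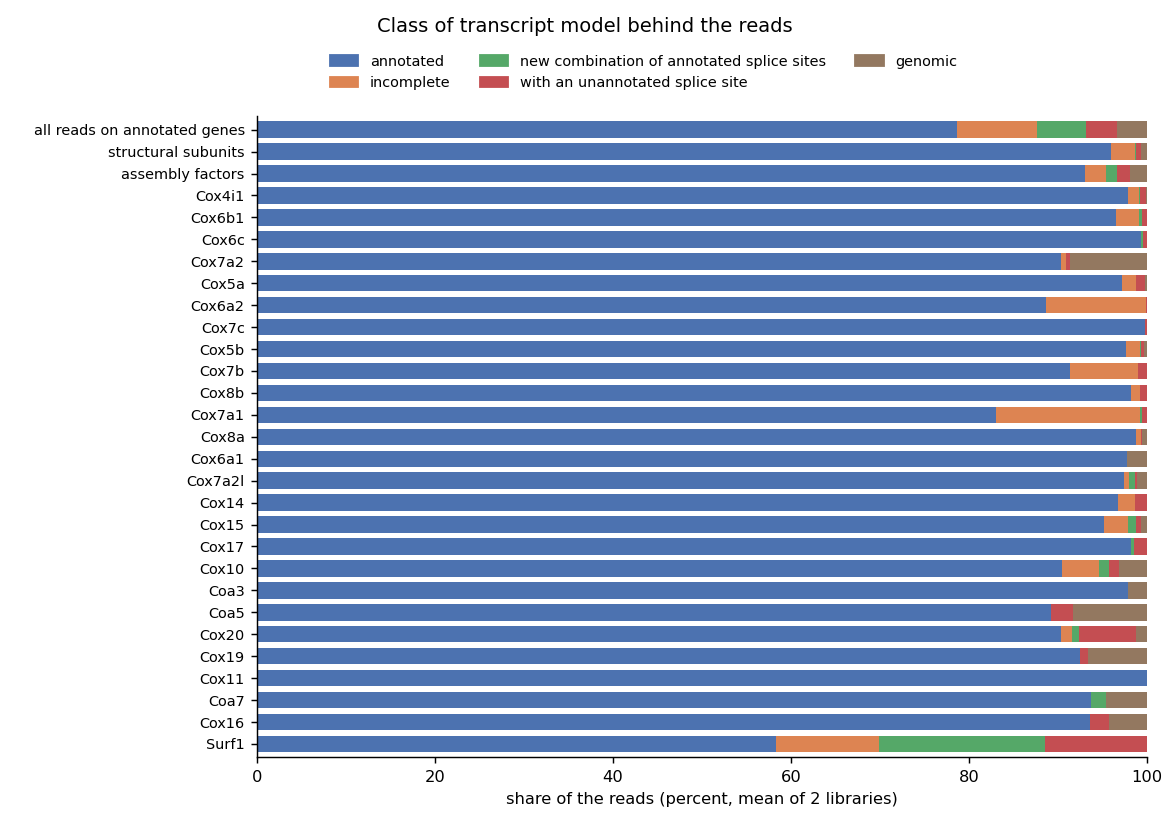
Share of reads by class of transcript model, in percent, as the mean of 2 libraries, for members with 20 reads or more per library and for all reads on annotated genes. Annotated forms fill most of each bar, Surf1 has the smallest annotated share, and incomplete models show in Cox7a1, Cox6a2 and Cox7b.

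Incomplete models, which hold only part of an annotated intron chain, were uneven. In Cox7a1 a model of a single exon of 119 bases held 66 and 91 reads, 15.7% and 15.8% of the gene. In Cox7b a single exon of 213 bases held 49 and 59 reads, 7.73% and 7.69%. In Cox7a2 it was the genomic class that stood out, with 76 and 101 reads, 8.79% and 8.47%. Each of these shares was close in the 2 libraries. Sco2 had 8 and 9 of its 19 and 21 reads on a single exon of 829 bases.

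In Cox6a2 the reads were placed on different models in the 2 libraries. Its annotated form, Cox6a2-201 (chr7:128205435-128206387, minus strand, 3 exons), had 728 reads in replicate 1 and 960 in replicate 2. In replicate 2 a further 262 reads were on an incomplete model of a single exon of 378 bases, which had 0 reads in replicate 1. In replicate 1, 246 reads were instead on a genomic-class model assigned to the neighbouring gene 4931431B13Rik, at chr7:128202078-128205812 on the same strand, which covers that exon; a genomic-class model of that gene had 1 read there in replicate 2. Counting such reads for Cox6a2 gave 978 and 1233 reads, and the share of the pair became 86.6% and 86.3%. The gap between the libraries in that share fell from 3.38 percentage points to one well inside the counting intervals.

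For most members the read structures resolved to a single leading form. A form was usable here if it was annotated, or unannotated with new splice sites or combinations and 5 reads or more in both libraries. In 25 members each library had 20 usable reads or more, and 11 of these had 1 usable form alone. The leading form held under 90% in 3 of the 25 (Cox4i1, Cox6c and Cox16), against 31% of all 4348 genes with that many reads. It was unannotated in 0 of 25, against 4.35% of genes. It was a form annotated as non-coding in 1 of 25, Cox4i1, against 0.529% of genes. It was nested at the 3' end of a longer annotated form in 1 of 25, again Cox4i1, against 3.63%. Of unannotated forms with new splice sites or combinations, incomplete models aside, only 2 reached 5 reads in both libraries, both of Cox4i1.

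The leading form of Cox4i1 was Cox4i1-204, with 2980 of 4887 usable reads in replicate 1 and 3622 of 5923 in replicate 2, or 61% and 61.2%. It is annotated as a retained intron form of 3 exons and 578 bases at chr8:120672590-120674113 on the plus strand, and has no annotated protein. The coding form Cox4i1-201, of 5 exons and 745 bases at chr8:120668222-120674207, had 1852 and 2235 reads. Cox4i1-205, a coding form with a longer first exon, had 36 and 41. The share of Cox4i1-204 differed between the libraries by less than counting error (Fisher's exact test, two-sided, adjusted p = 1). Cox4i1-204 alone held 40.2% and 42.4% of all reads on retained intron forms of coding genes in these libraries, ahead of Fxyd1-213 with 6.15% and 6.34%.

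The annotated sequences around the start of exon 3, at position 120672725, show how these forms differ. In Cox4i1-201 exon 2 is joined to exon 3. In Cox4i1-204 the last 135 bases of intron 2 run into it. Capitals mark exon 3, and 15 bases are shown on each side.
Cox4i1-201: gccttcgagcacatgGGAGTGTTGTGAAGA
Cox4i1-204: tccaatgtgttgtagGGAGTGTTGTGAAGA

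The introns of Cox4i1-204 (120672893 to 120673220 and 120673353 to 120673970) are the last 2 introns of Cox4i1-201. TALON, which built the models, names reads by their introns, so a read that begins anywhere in or before exon 3 and lacks the first exons takes the same name as a true Cox4i1-204 molecule. The deposited models give annotated ends, not read ends, so these kinds of read cannot be told apart here. An incomplete model that lacks only the first exon, with 4 exons, had 50 and 56 reads. When nested annotated forms were merged into the longer form with reads, Cox4i1-201 took 99% of usable reads in both libraries. Such a nested position was rare in the other structural subunits: 1.61% of their annotated reads were on nested forms, against 2.84% for assembly factors and 5.02% for all genes.

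**Figure D4:**
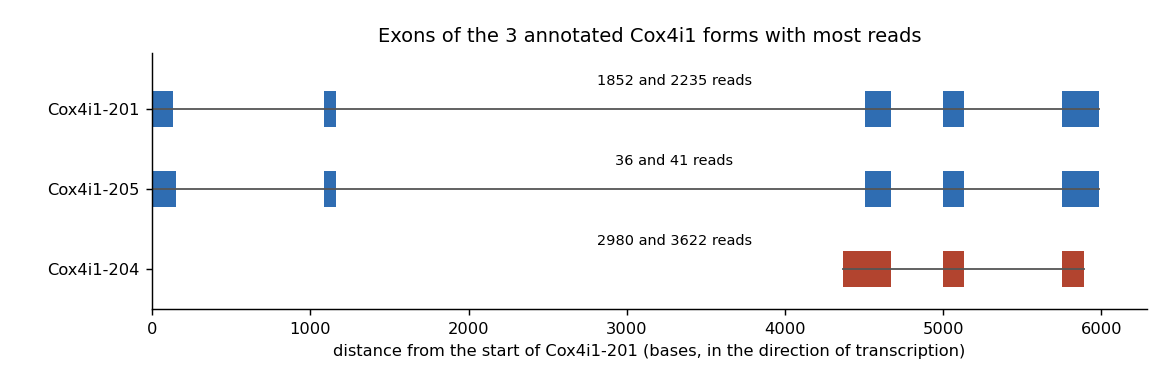
Exons (boxes) and introns (lines) of the 3 annotated Cox4i1 forms with most reads, by distance in bases from the start of Cox4i1-201, with the reads of replicates 1 and 2. Cox4i1-204, with 2980 and 3622 reads, shares the last 2 introns with the coding forms and starts 135 bases before their exon 3.

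Cox6c showed a smaller share of the same kind. Its leading form Cox6c-201, with 4 exons and 503 bases, had 90.1% and 87.3% of usable reads. Cox6c-203, whose introns are the last 2 of Cox6c-201, had 97 and 162 reads. In Cox16 the leading form Cox16-201 (2007 bases) had 12 of 22 and 13 of 22 usable reads, and Cox16-202, a coding form of 668 bases with a distant last exon, had 8 and 6. Cox17 fell just short of the limit for naming and is added because its second form is also annotated as a retained intron form. Cox17-204 (2396 bases) had 10 and 18 reads beside 105 and 151 for the coding Cox17-201. As annotated, it reads from the first exon, which ends at chr16:38347207, into the intron of 2033 bases that follows, where Cox17-201 is spliced to the second exon. Its only intron is the last of Cox17-201, so Cox17-201 reads that lack the first exon would take the same name and cannot be told apart from it here. Capitals mark the sequence after the first exon.
Cox17-201: ggcgcgtgatgcgtgCATCATTGAGAAAGG
Cox17-204: ggcgcgtgatgcgtgGTCAGTGCGTAGCCC

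Of the 25 members, 14 had a second usable form and could be tested for a difference in the leading form between the libraries. None passed Benjamini-Hochberg adjustment over all 2747 genes tested by Fisher's exact test, where 2 genes passed, a background of 0.0728%. At an unadjusted p under 0.05 there was 1 member of the 14, Cox6c (Fisher's exact p = 0.0358). The share of all 2747 genes at that threshold was not counted.

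The libraries were next compared gene by gene with a two-sided exact binomial test of reads given the totals, adjusted over all 9907 genes with at least 10 reads. Because there was 1 library on each side, the test compares these libraries and not conditions. Of 32 members tested, 9 were higher in replicate 2 and 0 were lower, against a background of 0.797% of genes higher and 0.888% lower. All 9 were structural subunits: Cox4i1, Cox5a, Cox5b, Cox6a2, Cox6c, Cox7a1, Cox7a2, Cox7c and Cox8b. Every one of the 14 structural subunits tested had a log2 ratio above 0, as had 49.96% of the 8002 genes averaging 10 reads or more. The median of the 13 subunits averaging 10 reads or more was 0.26, against -0.00077 for all genes. Genes under 1000 bases had raised medians as a whole, as given below, and most structural subunits are that short. Of 17 assembly factors, 0 passed with the exact binomial test, and the median log2 ratio of 16 was 0.017. At an unadjusted p under 0.05 there was 1 assembly factor, Cox17, and the share of all genes at that threshold was not counted. Assembly factors had fewer reads than most structural subunits, so only larger ratios could pass among them.

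Cox6a2 had the largest ratio among those 9, a log2 ratio of 0.63 (interval 0.50 to 0.77; exact binomial adjusted p = 1.7e-18). With the reads on overlapping models added its log2 ratio was 0.22 (exact binomial adjusted p = 0.0328). Cox8b had 0.51 (0.33 to 0.69), Cox6c 0.35 (0.23 to 0.47), Cox7a2 0.35 (0.22 to 0.47) and Cox7a1 0.33 (0.15 to 0.52). Cox4i1, with the most reads, had a small ratio of 0.16 (0.11 to 0.21). Among assembly factors, Cox17 had 0.44 (0.09 to 0.79; exact binomial adjusted p = 0.282), Cox14 had -0.023 and Cox10 had -0.30. Sco1, with 13 and 5 reads, had the largest ratio in size of any member tested, and in the other direction, -1.34 (-3.34 to 0.08; exact binomial adjusted p = 0.556).

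Transcript length moved with this difference over all genes. The median log2 ratio was 0.29 for 106 genes under 500 bases, 0.23 for those of 500 to 750 bases, 0.18 for 750 to 1000 and 0.04 for 1000 to 2000, and it was below 0 for longer genes. The 12 members of 500 to 750 bases had a median of 0.25, close to the 0.23 of all genes of that length. Of these 12, 6 were called higher against 7.52% of those genes, which were matched on length but not on reads. A call depends on reads as well as on the ratio. In this length class Cox4i1 was called at 0.16 with 4981 and 6032 reads, and Cox17 was not at 0.44 with 117 and 172. When the ratio expected at each length was subtracted, 1 member remained called, Cox6a2, against 0.404% of genes higher. With that subtraction and the reads on overlapping models added together, 0 of 33 members passed the exact binomial test. Of all 10081 genes tested in that setting, 31 were higher and 81 lower, so 0 members is near the background. At an unadjusted p under 0.05 there were 3 members, and the share of all genes at that threshold was not counted. The log2 ratio of Cox6a2 in that setting was -0.0029. Over the 30 members averaging 10 reads or more, the median log2 ratio was 0.17, and 0.014 after the length trend.

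**Figure D5:**
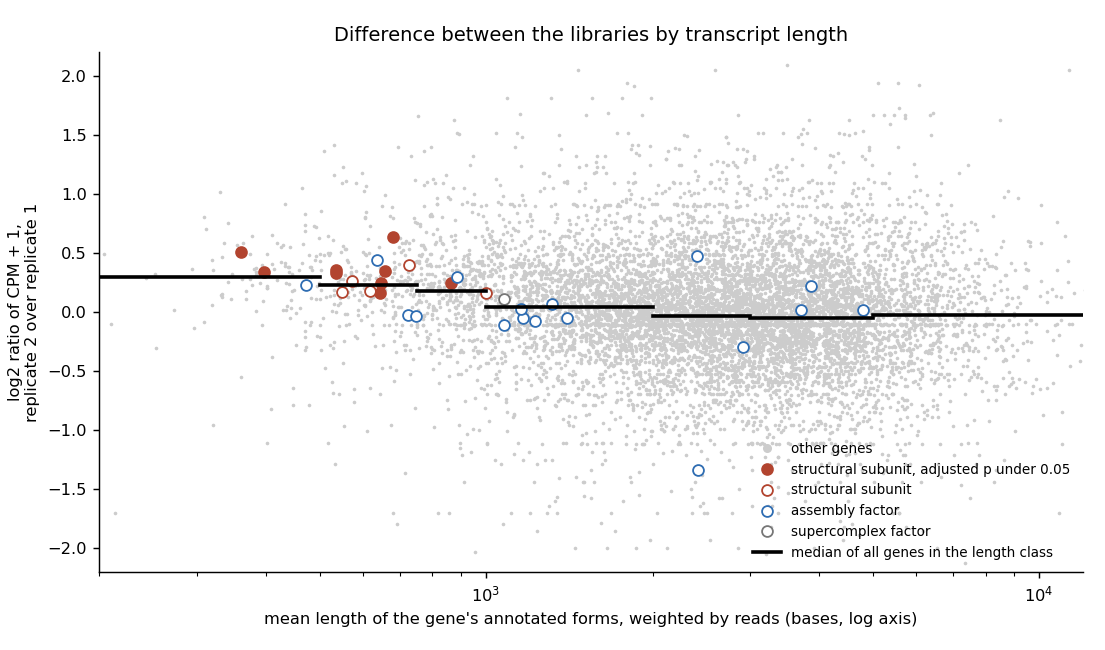
Log2 ratio between the libraries (replicate 2 over replicate 1, CPM + 1) against mean transcript length in bases on a log axis, for 9444 genes with a length, 27 of them beyond the vertical axis. Black bars are medians of all genes per length class. Most structural subunits lie near the raised bars under 1000 bases, with Cox6a2 the highest filled point.

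Some markers of other cell types also moved between the libraries. Cox7a1 and Cox8b are expressed in brown fat as well as muscle, and all 6 adipocyte markers were detected, summing to 283 CPM in replicate 1 and 366 in replicate 2. Ucp1, which defines brown fat, had 53 and 107 reads (log2 ratio 0.89; exact binomial adjusted p = 0.0165) and was the only adipocyte marker called. The list did not move as a whole: Cidea had 87 and 129 reads and Cfd 51 and 63, but Adipoq had 16 and 13, Cidec 34 and 30, and Plin1 9 and 9. Lung markers summed to 133 and 9.38 CPM, nearly all Scgb1a1 with 111 and 7 reads, and Sftpb had 0 in both. Scgb1a1 was called lower in replicate 2 (exact binomial adjusted p = 6.83e-24). The part of these cells in the ratios of Cox7a1 and Cox8b was not tested. In bulk tissue, fewer cells of a type and less RNA per cell cannot be told apart. Smooth muscle markers summed to 339 and 325 CPM, and none was called: Acta2 had 271 and 276 reads, Myh11 17 and 10, and Tagln 12 and 26. The 6 cardiomyocyte markers were all detected, at 37506 and 37855 CPM in sum, with Myh6 alone at 26845 and 28540 reads (log2 ratio -0.028, not called). Under that sum the markers moved apart. Actc1 (4268 and 5113 reads, log2 ratio 0.14, exact binomial adjusted p = 0.000294) and Myl2 (1544 and 2087 reads, 0.32, exact binomial adjusted p = 2.07e-08) were higher in replicate 2, as the subunits were. Tnni3 (0.19), Tnnt2 (-0.067) and Ryr2 (81 and 62 reads, -0.50) were not called. The mean length of the annotated forms, weighted by reads, was 503.5 bases for Tnni3, 663 for Myl2, 1473 for Actc1 and 6082 for Myh6. Tnnt2 and Ryr2 had no such length. The part of length in the ratios of these markers was not tested. Of 6 skeletal muscle markers, 4 (Myh1, Myh2, Myh4 and Tnnt3) had 0 reads in both libraries, Mylpf had 1 in each and Acta1, which heart also expresses, had 522 and 525. The part of skeletal muscle in the reads of Cox6a2, Cox7a1 and Cox8b was not tested.

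Around the enzyme, 21 of 22 listed partner genes were found by name in the annotation, and all 21 were detected. Coa1 was not found under that name and has no value. Ndufa4, now counted as a complex IV subunit although named for complex I, was the highest with 2095 and 2824 reads (2656 ± 407 CPM). It was also the only gene of this list called between the libraries (log2 ratio 0.31; exact binomial adjusted p = 2.46e-11), and like most structural subunits it is short, at 609 bases. Cycs, the electron donor cytochrome c, had 997 and 1240 reads. The catalytic subunit mt-Co1 had 1016 and 1154 reads, whereas mt-Co2 had 36 and 39 and mt-Co3 60 and 67. Whether these counts give the relative levels of the mitochondrially encoded RNAs was not tested. Higd1a, a small protein that binds the enzyme, had 478 and 497 reads, and Hccs, which attaches heme to cytochrome c, had 200 and 245. Lrpprc, which stabilises mitochondrial mRNA, had 182 and 191.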

How the data were processed

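Long-read RNA sequencing was analysed in 2 libraries of heart tissue. The authors deposited, for each library, a table with the count of reads per transcript model and the models themselves on mm10 with GENCODE M21. The models carry TALON attributes, per the file headers, and each library was processed alone, per the text deposited with it. The aligner is not given in the sources used here, nor are filters or tool versions. No count was normalized by the authors.

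Reads of all classes were summed per gene, spike-ins (12223 of 896941 and 12825 of 972159 reads) being left out. CPM used the total of the other reads. The libraries were compared with exact binomial tests over genes that reached 10 reads in the sum of both, and leading forms with Fisher's exact test over genes that reached 20 usable reads in both, with Benjamini-Hochberg adjustment over all genes tested at 0.05. Log2 ratios are of CPM + 1, whereas their intervals are of the CPM ratio without the added 1, which matters at low counts. Both tests were tried on simulated reads that held counting error alone. The simulation had no length trend or other spread between libraries, so it cannot show how the tests behave in these libraries. The length trend is the running median log2 ratio over 501 genes ordered by length. TMM factors came from edgeR 4.0.16, and sequences were compared with BLAST+ 2.17.0. Scripts ran in Python 3.11.15 with scipy 1.17.1, and in R 4.3.3. Promoter sequences are from RefSeq (GRCm38.p6) and transcript sequences from GENCODE M21. No genome sequence was used here.

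Each member with a read is named. Forms are named where the leading form held under 90% in the mean or was unannotated, and the 6 highest genes of the partner list are named. The members, lists and rules were chosen with earlier results of these data known. Cox17-204, mt-Co2, mt-Co3, the incomplete models and the addition of reads on overlapping models were singled out after their values were seen. The alternatives tried were other classes, scalings, minimums, the length trend and leaving out each library.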

Additional observations from a re-analysis of the deposited data

Results flagged for a closer look

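Some reads over the exons of members were outside the gene counts and exceeded the 3 reads that a count of 0 allows in at least 1 library. On the same strand, unannotated models of other genes held 246 reads over Cox6a2 in replicate 1, 7 reads over Pet117 in each library, and 5 and 6 reads over Sco2. On the opposite strand, models over Cox17 held 13 reads in replicate 1 and 5 in replicate 2, those over Cox5a held 7 and 4, and those over Cox7a2 held 6 and 7. Opposite-strand models over Cox6b1 held 6 reads in replicate 1, and those over Cox14 held 5 in replicate 2. These opposite-strand reads were few beside those of the genes, and their origin was not tested.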

How the results depend on the processing

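No paired analysis was possible because there is 1 group with 2 libraries. The sum of the subunits stayed above that of the assembly factors, and the shares of Cox6a2, Cox8b and Cox7a1 kept their order, in each library taken alone, with 32 members detected in each. The shares of Cox4i2, Cox6b2 and Cox6c2, which rest on 6 reads or fewer, did not keep theirs. The number of members differing between the libraries was 9, and 1 with the length trend or 0 with the length trend and reads on overlapping models added. The median log2 ratio of members was 0.17, and 0.0138 and 0.0083 under these settings. Spike-in totals added Cox6b1 to the 9 and moved the calls over all genes from 79 higher and 88 lower to 106 higher and 65 lower, with the median of all genes at 0.05. With the length trend these were 40 and 79, and with reads on overlapping models added as well they were 31 and 81. No minimum of reads ended the call of Cox5b, and annotated models alone that of Cox7a1. With annotated models alone, whose total is smaller, the structural subunits summed to 20371 CPM and the assembly factors to 1651. The share of Cox7a1 was 34.7% without the genomic class and 30.8% with annotated models alone, and that of Cox6c2 against Cox6c was 0.16% with reads on overlapping models added. The number of genes whose leading form differed was 2, and 1 with annotated models alone or a minimum of 10 usable reads. Merging nested forms raised the leading share of Cox4i1 to 99%, Cox6c to 99.8% and Cox17 to 100%. Reads on overlapping models and merged nested forms were alternatives chosen after seeing the data. Low counts left wide intervals of the log2 ratio: -3.34 to 0.08 for Sco1 (13 and 5 reads, exact p = 0.0566) and -1.61 to 2.74 for Cox4i2 (4 and 6 reads).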
